A study of Mus musculus with 10 samples.

Results

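The genes described here are 10 markers of neurons in the thalamus, the relay station that lies directly beneath the hippocampus: Tcf7l2, Lef1, Shox2, Gbx2, Tnnt1, Rgs16, Prkcd, Rora, Ntng1 and Slc17a6. They were chosen by name, as every probe that the array files assign to one of them. This gave 22 probes for 10 of the 27376 gene names on the array, of which 20 probes were bright enough to be tested. The tissue was the hippocampus of adult ICR mice, an outbred stock. In the high estradiol group (HE) the mothers had been given estradiol valerate, an ester that the body turns into estradiol, by mouth in corn oil at 100 µg/kg/day between E5.5 and E11.5 of pregnancy. In the control group (NC) the mothers had been given corn oil alone. Each group held 5 arrays, and all 10 animals were labelled male. The exposure was that of the mother, and the labels name no litter, so p-values measure only the spread between these samples. How the hippocampus was dissected is not given in the labels either, and its part in the differences was not tested.

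Excitatory neurons of the thalamus differ from those of the hippocampus and cortex in the proteins they use. They load glutamate into vesicles with the transporter VGLUT2, the product of Slc17a6, where most hippocampal and cortical neurons rely on VGLUT1, the product of Slc17a7. The transcription factors Gbx2, Lef1, Tcf7l2, Shox2 and Rora are active in developing thalamic neurons, and several stay on in the adult. Lef1 and Tcf7l2 belong to the TCF/LEF family, which carries the transcriptional response to Wnt signals through beta-catenin. Several of these genes are also used outside the thalamus: Tcf7l2 in maturing oligodendrocytes, Prkcd in other forebrain neurons, Rora in Purkinje cells and Slc17a6 in hypothalamic and brainstem neurons.

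All 10 genes were called lower in HE over all arrays. The median of their log2 differences was -2.01, while the median over all 20082 tested genes was -0.06. With limma and a threshold of 0.05 on the adjusted p, 14.6% of all tested genes were called lower in HE and 6.79% higher. At the level of probes, 18 of the 20 tested member probes were called lower, against 15.5% of all 30977 tested probes, and the remaining 2 also had negative differences. All HE arrays lay below all NC arrays for 7 of the 10 genes, which was so for 11.0% of all tested genes. Shox2 entered the test through its NC signals and was near background on 4 HE arrays, so its difference has no exact size. Over the other 9 genes the differences ran from -2.62 for Tcf7l2 to -1.30 for Rora, with a median of -1.91. The calls did not hold under every setting. When slide was a fixed block, 0 of the 10 genes passed limma. With normexp background correction centred on the median probe of each array, 2 passed (Tcf7l2 and Shox2) and the median was -0.96, with Rora at -0.24, where 10.4% of all tested genes were called lower. The median of all probes was 0.42 in that fit. Of all tested genes, 165 fell by more than the median of the members. In tissue RNA, fewer cells of a type and less RNA per cell cannot be told apart.

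The probes that read these transcripts are 60 bases long, and the positions given here are those in the array files, on mouse build mm9. The 7 shown next were chosen because each has a reading frame without a stop codon along its whole length, so that it can lie in the coding sequence of the messenger RNA that was measured. The Shox2 and Prkcd probes span 380 and 588 bases of the genome, so they cross a removed intron and read spliced RNA.
Tcf7l2 (chr19:55982975-55983034, plus strand): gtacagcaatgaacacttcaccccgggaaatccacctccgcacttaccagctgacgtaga
Shox2 (chr3:66779435-66779814, minus strand): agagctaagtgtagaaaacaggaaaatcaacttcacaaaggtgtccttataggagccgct
Tnnt1 (chr7:4460086-4460145, minus strand): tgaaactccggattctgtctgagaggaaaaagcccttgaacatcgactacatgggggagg
Prkcd (chr14:31414383-31414970, minus strand): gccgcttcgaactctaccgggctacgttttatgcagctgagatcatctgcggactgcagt
Rora (chr9:69226611-69226670, plus strand): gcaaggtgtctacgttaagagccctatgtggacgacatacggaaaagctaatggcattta
Ntng1 (chr3:109737588-109737647, minus strand): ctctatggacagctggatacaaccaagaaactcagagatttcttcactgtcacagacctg
Slc17a6 (chr7:58924553-58924612, plus strand): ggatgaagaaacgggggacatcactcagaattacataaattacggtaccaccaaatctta

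Before the groups were compared, the arrays themselves were looked at. Signals are given as the log2 of the processed signal relative to the 75th percentile of the same array, so a value of 0 marks a probe as bright as that percentile, and levels of different probes cannot be compared. That percentile was a processed signal of 898 on the dimmest array and 1277 on the brightest, and the share of probes well above background was 70.3% to 78.8%. The first 4 NC arrays shared slide 1, while NC 5 shared slide 2 with HE 1 and HE 2. The other HE arrays (HE 3, HE 4, HE 5) were on slide 3. Slides were scanned separately, so that slide and scan are the same. Xist, the RNA of the inactive X chromosome, was high on 7 of the 10 arrays (NC 1 to NC 4 and HE 1 to HE 3), against the male label. Alb, the liver gene for serum albumin, was 0.50, 0.48 and -0.20 on NC 1, NC 2 and NC 4, and between -8.77 and -4.80 on the other arrays. For these reasons the counts of called genes were also taken on the arrays with high Xist alone and without NC 1, NC 2 and NC 4.

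Among the transcription factors, Tcf7l2, a TCF/LEF protein kept on in the adult thalamus, was read by 4 probes. On its brightest (chr19:56007586-56007645), NC 1 to NC 5 had 2.39, 2.85, 2.75, 2.95 and 3.35, and HE 1 to HE 5 had -0.35, -0.03, -0.14, 1.77 and -0.07. The groups did not overlap, and HE 4 stood between the other 4 HE arrays and the controls. The difference was -2.62 ± 0.37 (SE), or 6.15-fold lower, with a limma adjusted p of 0.00564. Its other 2 tested probes fell by 2.34 and 1.91 on the log2 scale, and the second of these overlapped through HE 4 alone. The fourth probe was well above background on NC 4, NC 5 and HE 1 only and was not tested.

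Lef1, the other TCF/LEF member, had 3 probes. The brightest spans an intron (chr3:130907851-130926012) and read -0.98, -1.68, -0.55, -0.71 and -0.10 on NC 1 to NC 5. On HE 1 to HE 5 it read -2.63, -2.33, -2.61, -1.92 and -2.81, so that every HE array lay below every NC array. NC 2 was the lowest control and HE 4 the highest HE array. The fall was 3.16-fold (-1.66 ± 0.28, limma adjusted p = 0.00782). The other tested probe fell by 2.54 (limma adjusted p = 0.00653), again with no overlap, and the remaining probe did not rise well above background on any array.

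Shox2, a homeobox factor of thalamic neurons, was close to background in HE. Its 1 probe had -5.49, -4.95, -3.22, -3.61 and -2.79 on NC 1 to NC 5 and -8.58, -7.25, -8.70, -4.49 and -8.11 on HE 1 to HE 5. It stood well above background on all 5 NC arrays but on only 1 of the HE arrays, so most of the HE values are background readings and no fold change is given. The fitted difference of -3.41 ± 0.83 (limma adjusted p = 0.0193) therefore depends on those readings and is not a measured size. The groups overlapped, since HE 4 lay above NC 1 and NC 2.

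Gbx2, a homeobox factor needed for the formation of the thalamus, also had 1 probe (chr1:91825013-91825072). NC 1 to NC 5 read -2.91, -1.89, -1.65, -1.92 and -1.72, and HE 1 to HE 5 read -4.35, -4.41, -3.71, -1.72 and -4.09. HE 4 was at the level of the controls, while the other 4 HE arrays lay below all of them. The difference of -1.64 ± 0.49 passed narrowly (limma adjusted p = 0.0380). It kept its call in only 10 of 24 alternatives, losing it without any 1 array other than NC 1 and HE 4, and under quantile normalization (-1.47, limma adjusted p = 0.0538).

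Rora, an orphan nuclear receptor and transcription factor, had 3 tested probes. The brightest read 2.65, 1.90, 3.02, 2.51 and 3.04 on NC 1 to NC 5 and 1.31, 1.53, 0.91, 1.89 and 0.99 on HE 1 to HE 5. The groups were separate by a narrow margin, with the highest HE array, HE 4, just under the lowest control, NC 2. Rora fell 2.46-fold (-1.30 ± 0.25, limma adjusted p = 0.0109). A second probe 100 bases further along had nearly the same difference (-1.36 ± 0.27), and the third, assigned to another transcript, had -1.05 ± 0.35 and did not pass (limma adjusted p = 0.0533).

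Among the signalling and structural proteins, Tnnt1 encodes a slow-muscle troponin T that is also made in thalamic neurons. Its probe read 2.07, 0.86, 3.21, 2.22 and 3.17 on NC 1 to NC 5 and -0.37, -0.42, -0.16, 0.31 and -0.62 on HE 1 to HE 5. The HE arrays were close together and all below the controls, among which NC 2 was lowest. The fall was 5.89-fold (-2.56 ± 0.41, limma adjusted p = 0.00722).

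Rgs16, which speeds the shut-off of G-protein signals, had 1.14, 0.32, 2.12, 1.75 and 1.65 on NC 1 to NC 5 (chr1:155592244-155592303). On HE 1 to HE 5 it had -0.63, -0.84, -0.93, 0.22 and -0.40. HE 4 came within 0.0982 of NC 2 on the log2 scale, and there was no overlap. The gene fell 3.76-fold (-1.91 ± 0.34, limma adjusted p = 0.00875).

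Prkcd, the delta isoform of protein kinase C, had the widest spread of the 10 among the controls (SD 1.19, n = 5). Its brightest probe (chr14:31409035-31409094) had 2.21, 0.54, 3.38, 2.48 and 3.48 on NC 1 to NC 5, with NC 2 far below the rest. HE 1 to HE 5 had 0.95, 0.10, -0.74, 1.51 and -0.28, and HE 1 and HE 4 lay above NC 2. The difference was -2.11 ± 0.60 (limma adjusted p = 0.0314). Its second probe had -1.62 ± 0.61 and did not pass (limma adjusted p = 0.0787). Prkcd kept its call in 15 of 24 alternatives and lost it without NC 3, NC 5, HE 2, HE 3 or HE 5, and with the replicate number as a block (limma adjusted p = 0.0588).

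Ntng1 encodes netrin-G1, a membrane-anchored protein on axons that reach the cortex from the thalamus. It had the most tested probes and the narrowest spread among the controls (SD 0.218, n = 5). The brightest (chr3:109946348-109946407), the mean of 10 spots, read 3.37, 3.19, 3.32, 3.65 and 3.70 on NC 1 to NC 5 and 1.50, 1.63, 1.22, 2.65 and 1.57 on HE 1 to HE 5. The groups were well apart, with HE 4 again nearest to the controls. It fell 3.33-fold (-1.73 ± 0.24, limma adjusted p = 0.00547). All 4 tested probes fell without overlap, with differences from -2.64 to -1.67, and the smallest adjusted p of any member probe, 0.00366, was that of the Ntng1 probe printed above. Of the 4, the one with -2.64 stood well above background on only 2 of 5 HE arrays. It entered the test through its NC signals, so its difference has no exact size.

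Slc17a6, the vesicular glutamate transporter VGLUT2, is the transmitter gene of the set. Its brightest probe, printed above, read 2.90, 3.91, 3.72, 3.84 and 4.95 on NC 1 to NC 5 and 1.68, 1.48, 0.73, 2.79 and 1.12 on HE 1 to HE 5. HE 4 came just under NC 1, the lowest control, so the groups did not overlap. The gene fell 4.94-fold (-2.30 ± 0.43, limma adjusted p = 0.00954). The second probe fell by 1.90, with HE 4 above NC 1.

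**Figure D1:**
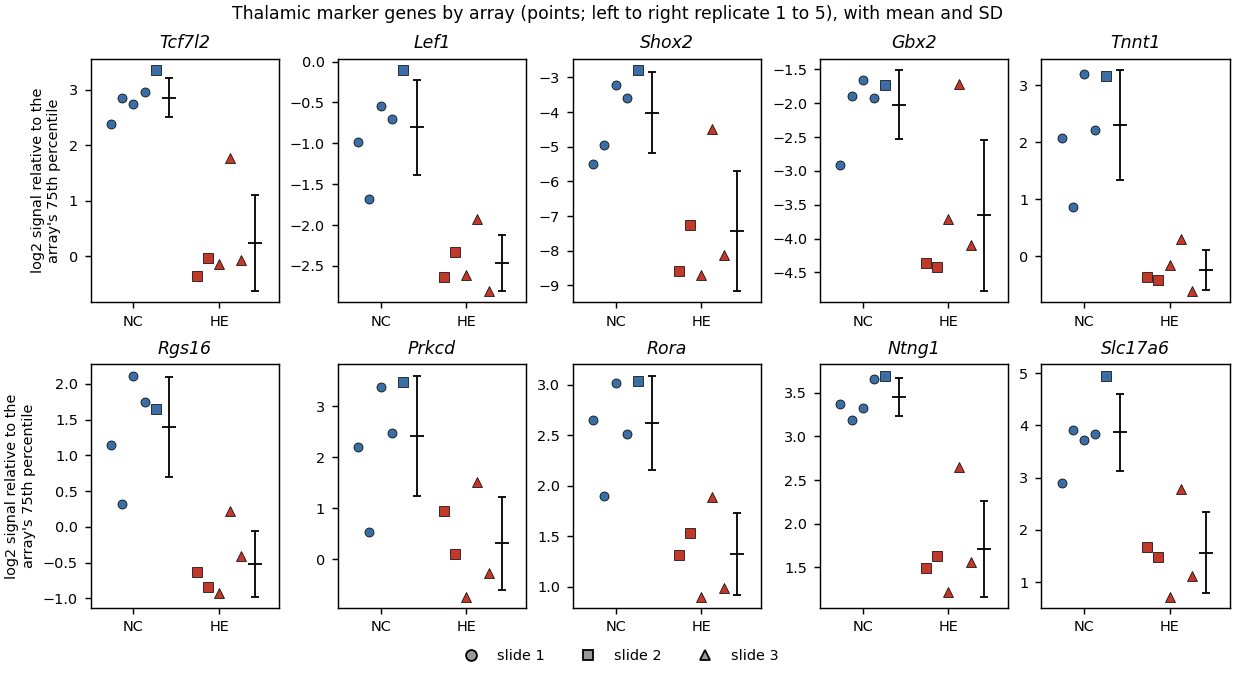
The log2 signal of each gene's brightest probe, relative to the 75th percentile of its array, on the 5 NC and 5 HE arrays, with the mean and SD of each group. Marker shapes give the slide, vertical scales differ between panels, and HE 4 is the highest HE array in all 10 panels.

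The spread inside each group followed the array more than the gene. Averaged over the 10 genes, the NC arrays ran from 0.504 to 1.87 (1.21 ± 0.58, SD, n = 5) and the HE arrays from -1.41 to 0.299 (-0.917 ± 0.693, SD, n = 5). NC 5 was the highest control for 7 genes and NC 3 for the other 3. NC 2 was the lowest control for 6 genes and NC 1 for the other 4. HE 4 was the highest HE array for all 10. It stood 25.9% (Tnnt1) to 114% (Gbx2) of the way from the mean of the other HE arrays to the NC mean, with a median of 59.0% over the genes.

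Slide and group overlapped only on slide 2. There the differences, HE 1 and HE 2 against NC 5, were larger than over all arrays for every member, between -5.13 (Shox2) and -1.61 (Rora), with a median of -2.81. These values rest on 1 control array, NC 5, which was the highest for 7 of the genes. With slide as a fixed block, which is the same difference, 0 of the 10 genes passed the limma test (adjusted p from 0.0581 for Tcf7l2 to 0.189 for Prkcd), where 0.344% of all tested genes were called lower. All 10 had an unadjusted limma p under 0.05 in that fit, as did 14.3% of all tested genes in the same direction. All 10 passed with slide as a random block, where 16.8% of all tested genes were called lower. On the 7 arrays with high Xist, 5 genes fell (Tcf7l2, Shox2, Gbx2, Ntng1 and Slc17a6), where 0.652% of all tested genes did, and the median of the members was -2.10. All 10 had an unadjusted limma p under 0.05 there, against 17.5% of all tested genes. Among those 7 arrays no slide carries both groups, and the group difference there cannot be told apart from one between slides. Without NC 1, NC 2 and NC 4, the arrays with high Alb, 8 genes fell, where 5.44% of all tested genes did. Shox2 (-4.42, limma adjusted p = 0.0538) and Gbx2 (-1.97, limma adjusted p = 0.111) did not pass. The median was -2.59. The only controls left in this fit were NC 3 and NC 5, the highest control for 3 and 7 of the genes. Among the controls left out, NC 1 and NC 2 were the lowest for 4 and 6.

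**Figure D2:**
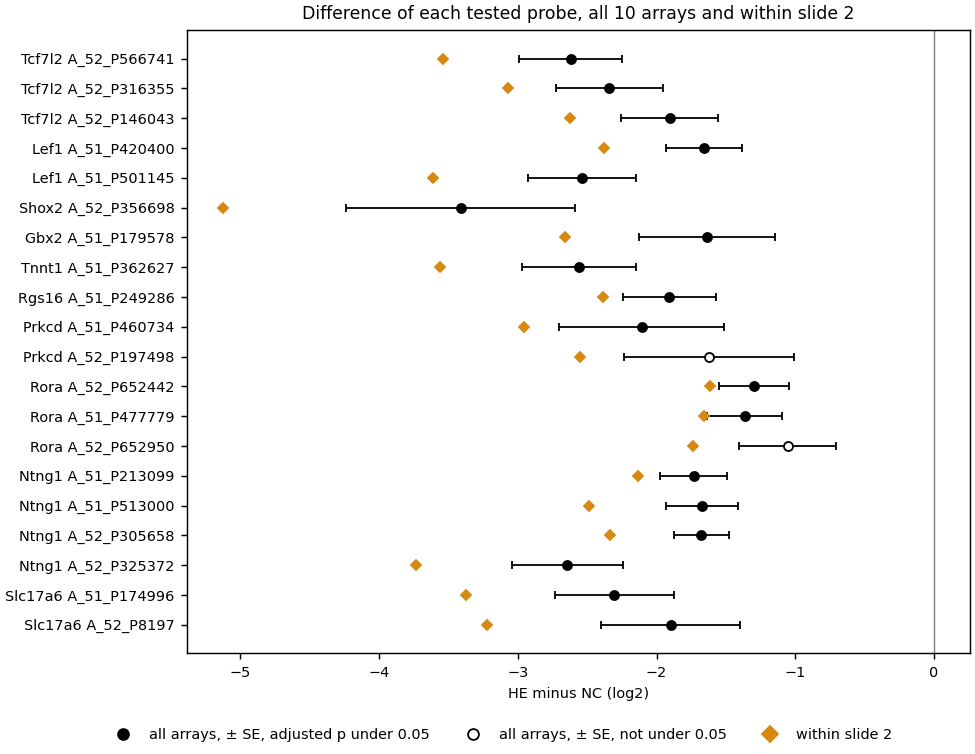
The log2 difference HE minus NC of each of the 20 tested member probes over all 10 arrays (circles with SE, filled where the limma adjusted p was under 0.05) and within slide 2 (diamonds, HE 1 and HE 2 against NC 5, no error). All 20 circles lie below 0, 18 are filled, and all 20 diamonds lie further below 0 than their circles.

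Whether the genes moved together from animal to animal was measured after each group's mean was taken away, so that the difference between HE and NC played no part. All 45 pairs of genes had a positive Pearson r over the 10 arrays, from 0.391 to 0.930, with a median of 0.709. In exact permutation tests within groups (two-sided, 14400 permutations, adjusted over the 45 pairs), 27 pairs passed with Pearson's r. With Spearman's rho 0 passed, and 19 pairs had an unadjusted p under 0.05. Much of this rested on HE 4. Without it 43 pairs stayed positive and the median r was 0.591, but 0 passed the exact permutation test and 9 had an unadjusted p under 0.05. Without the 2 arrays farthest from the median of the first gene of each pair, the median was 0.518 and 38 pairs were positive. With slide as well as group means taken away it was 0.720. Pairs of other genes were not put through these tests, so how common such correlations are on these arrays is not known.

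The closest pair was Prkcd and Rora (r = 0.930, exact permutation p = 0.00139, adjusted p = 0.0264; rho = 0.891, exact permutation p = 0.00264, adjusted p = 0.0625). Their r was 0.912 without HE 4 and 0.782 without NC 2 and HE 4. Tcf7l2 and Gbx2 followed (r = 0.929, exact permutation p = 0.0161, adjusted p = 0.0396; rho = 0.806, exact permutation p = 0.0311, adjusted p = 0.103). For this pair r was 0.643 without HE 4 and 0.675 without HE 4 and NC 5. The loosest pair was Tcf7l2 and Tnnt1 (r = 0.391, exact permutation p = 0.0994, adjusted p = 0.121; rho = 0.406, exact permutation p = 0.240, adjusted p = 0.271), with an r of -0.128 without its 2 farthest arrays.

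The matrix of r fell into 2 sets of 5 genes, named after the values were seen and given with no test. Lef1, Tnnt1, Rgs16, Prkcd and Rora had r between 0.784 and 0.930 among themselves (median 0.862). Tcf7l2, Shox2, Gbx2, Ntng1 and Slc17a6 had r between 0.709 and 0.929 (median 0.836). Between the sets r ran from 0.391 to 0.779 (median 0.574). Without HE 4 the medians were 0.841 in the first set, 0.617 in the second and 0.373 between them. Without the 2 arrays farthest from the median of each pair's first gene they were 0.694, 0.488 and 0.381. The arrays show where the sets part: NC 2 deviated from its group mean by -1.20 for the first set and by -0.207 for the second, and NC 1 by -0.170 and -0.777. HE 4 deviated by 0.721 for the first set and by 1.71 for the second.

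**Figure D3:**
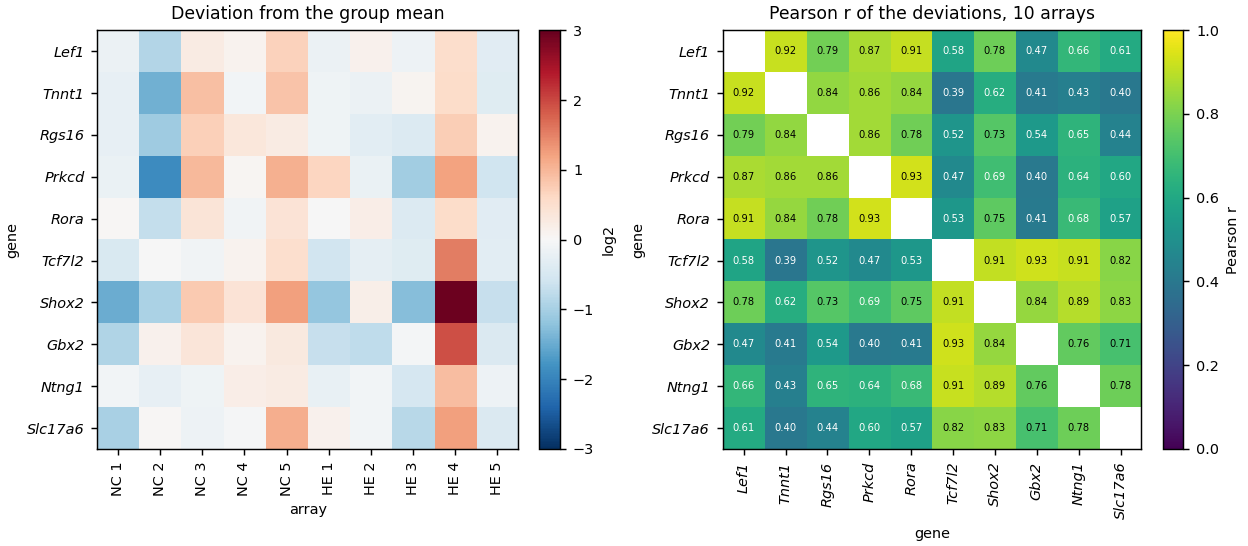
Left, the deviation of each gene from its group mean on each array, in log2 units. Right, Pearson's r of these deviations for every pair of genes over the 10 arrays. Rows of Lef1, Tnnt1, Rgs16, Prkcd and Rora are lowest on NC 2, the deviations of 8 genes (not those of Lef1 and Tnnt1) are highest on HE 4, and every r is above 0.

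Deviations most like the mean of the 10 were searched for among 14867 other tested genes with an ordinary symbol and no missing value. The closest were Zrsr2 (r = 0.959), Lpxn (0.958), Rnf115 (0.951), Cdkn2d (0.945), Chrnb2 (0.943), Ipo5 (0.940), Megf9 (0.939) and Paip1 (0.936). These r are descriptions over 10 arrays, with no test, and without HE 4 they ran from 0.869 (Cdkn2d) to 0.952 (Chrnb2). Their differences between HE and NC were small, from -0.30 (Lpxn) to 0.07 (Zrsr2), and none of the 8 passed. Chrnb2 encodes the beta2 nicotinic receptor subunit, which pairs with the alpha4 subunit encoded by Chrna4.

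Other genes known from the thalamus were set beside the 10 as a list of 18. Of these, 8 fell, 2 rose and 8 did not pass, with a median of -0.88. Chrna4, the alpha4 nicotinic receptor subunit, fell by 1.63 (limma adjusted p = 0.00919), and Plekhg1 fell by 1.999 (limma adjusted p = 0.0174). Synpo2 fell by 1.66 and Grid2ip fell by 1.55. Ramp3, which modifies receptors of the calcitonin family, had -1.26, the potassium channel Kcnc2 -0.89, the vesicle protein Vamp1 -0.88 and the RNA editing enzyme Adarb1 -0.56, and these 4 also passed. Ecel1 and Necab1 rose by 0.62 and 0.49. Lhx9, a homeobox gene of early thalamus, had a difference of -2.13 and did not pass (limma adjusted p = 0.0607). Calb2, Amotl1, Cacna1g, Foxp2 and Zic1 also did not pass, with differences from -0.93 (Calb2) to -0.37 (Zic1). Six3 (0.81) and Ptpn3 (0.22) had positive differences and did not pass either. The mean of the 18 followed the mean of the 10 over the arrays once group means were removed (r = 0.961, 10 arrays, a description only). No call was left with slide as a fixed block (median -1.23) or on the arrays with high Xist (median -0.78), and 7 genes fell without NC 1, NC 2 and NC 4. Under normexp centred on the median probe 1 fell and 3 rose, and the median turned to 0.20, against 0.42 for all probes. The count of 8 also dropped with single arrays left out: to 5 without NC 3 or HE 3, 4 without HE 2, 3 without HE 5 and 2 without NC 5 or HE 1.

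Close relatives of the 10 did not move as a block: of 17, 2 fell, 1 rose and 14 did not pass (median 0.35). Slc17a8, the vesicular glutamate transporter VGLUT3, fell by 1.60. Tcf7l1, a TCF/LEF protein that mostly represses its targets, rose by 0.80. Slc17a7, the VGLUT1 gene of hippocampal and cortical neurons, had 1.13 ± 0.39 and did not pass (limma adjusted p = 0.0593). With slide as a fixed block, against NC 5 alone, it had 2.82 and passed (limma adjusted p = 0.0406). Of 15 genes of the canonical Wnt pathway, 13 did not pass (median 0.05). Lgr5, a receptor for R-spondins, fell by 1.07 and the ligand Wnt3 fell by 1.18. Axin2, a feedback target of the pathway, had 0.79 ± 0.33 and Dkk3 0.77 ± 0.33, and neither passed.

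The TCF/LEF core motif CTTTGA was looked for on both strands (as CTTTGA or its reverse complement TCAAAG, which do not overlap) in the RefSeq promoters of the members, since Lef1 and Tcf7l2 fell with the rest. The promoter window ran from 250 bases before to 50 bases after each gene's start, on GRCm38.p6. The motif was present for 3 of the 10 genes and in 3 of their 16 promoters, while 18.2% of all 27025 genes had it and 16.0% of all 32851 promoters of this length held it. The stretches around the matches are given in capitals at the motif, with lower case on both sides.
Shox2 (GRCm38.p6 chr3:66981875-66981940, minus strand): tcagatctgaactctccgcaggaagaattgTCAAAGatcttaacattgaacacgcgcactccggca
Lef1 (GRCm38.p6 chr3:131156084-131156209, plus strand): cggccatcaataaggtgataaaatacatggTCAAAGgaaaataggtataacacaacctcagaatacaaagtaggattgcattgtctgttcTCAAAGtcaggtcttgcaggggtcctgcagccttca
Prkcd (GRCm38.p6 chr14:30626312-30626377, minus strand): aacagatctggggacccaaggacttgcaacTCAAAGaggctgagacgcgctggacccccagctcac
The Lef1 stretch holds the motif at 2 places. A match of these letters is a description and not a binding site.

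Markers of other tissue near or in the hippocampus were counted beside the thalamic genes, and their part in the result was not tested. Once slide was a fixed block, 0 genes of the habenula, Wnt pathway, midbrain and myelin lists passed limma. In that fit 1 hypothalamus gene fell and 1 hippocampal gene rose. At an unadjusted limma p under 0.05, 3 of 9 habenula, 2 of 15 Wnt and 5 of 11 midbrain genes were lower. Likewise 5 of 10 hypothalamus and 4 of 10 myelin genes were lower. So were 14.3% of all tested genes. On the arrays with high Xist 1 myelin gene and 1 of 14 Wnt genes fell. There 0 genes of the hippocampal, neocortex, habenula, hypothalamus and midbrain lists passed limma. At an unadjusted limma p under 0.05, 1 of 18 hippocampal, 0 of 12 neocortex and 2 of 8 habenula genes were lower there. The same was so for 5 of 10 hypothalamus, 5 of 10 midbrain, 7 of 10 myelin and 2 of 14 Wnt genes. It was so for 17.5% of all tested genes. All 18 markers of hippocampal neurons, the labelled tissue, were bright enough to be tested. Among them Man1a and Pou3f1 rose by 0.85 and 1.36, Prox1 of dentate granule cells fell by 0.89 and 15 did not pass (median 0.26). Of 12 markers of neocortex and subiculum, 2 rose, among them Lamp5 by 1.27, and 10 did not pass (median 0.33). None of 10 striatum markers and none of 9 choroid plexus markers passed the limma test in either direction, with medians of 0.65 and 0.66, and 0 of either list had an unadjusted limma p under 0.05.

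The habenula is a small nucleus next to the thalamus that shares several of its genes. Of 12 habenula markers 9 were tested. Irx2 (-3.39) and Nhlh2 (-2.37) fell and 7 did not pass (median 0.42). The habenula genes Chrnb4 and Syt15 did not rise well above background on any array. Of 10 tested hypothalamus markers, Pmch, the gene for melanin-concentrating hormone, fell by 3.86 and Hcrt, the orexin gene, fell by 2.33, while 8 did not pass (median -0.80). The mean of the hypothalamus list ran from -1.23 to 0.367 on the NC arrays and from -2.35 to -0.988 on the HE arrays.

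Of 11 tested midbrain markers, 5 fell and 6 did not pass (median -1.94). With slide as a fixed block 0 passed and the median was -3.51, and without NC 1, NC 2 and NC 4 the count was 2. Under normexp centred on the median probe 7 fell and the median was -1.17, where 10.4% of all tested genes were called lower. Gata3, a transcription factor of midbrain neurons, did not rise well above background on any HE array. It entered the test through its NC signals, and its limma adjusted p of 0.00627 rests on HE background readings. Set against the lowest signal well above background on the HE arrays, the NC mean of Gata3 gave a fall of at least 16.1-fold. That bound is for the mean and not for each control. NC 1 (-5.04) and NC 3 (-5.13) lay far below NC 2, NC 4 and NC 5 (-1.63 to -1.10). The mean of the midbrain list ran from -4.24 to -1.34 on the NC arrays and from -5.40 to -4.93 on the HE arrays. Its deviations did not follow those of the thalamic members (r = -0.05, 10 arrays, a description only), and HE 4, the highest HE array for the thalamic genes, had -5.31. For the hypothalamus, Wnt, habenula and choroid plexus lists this r was 0.73, 0.64, 0.56 and 0.55. It was 0.31 for the hippocampal list, 0.21 for myelin, -0.11 for close relatives, -0.16 for neocortex and subiculum and -0.71 for striatum. HE 4 was also the highest HE array for the hypothalamus, habenula, hippocampal and Wnt lists. Of 10 myelin and oligodendrocyte markers 7 fell and 3 did not pass (median -0.64). The calls were 0 with slide as a fixed block (median -0.57) and 8 without NC 1, NC 2 and NC 4, and under normexp centred on the median probe 0 passed and the median turned to 0.38. Among them were Ermn (-1.43), Mobp (-0.90) and Cnp (-0.79). The myelin list ran from 3.45 to 3.96 on the NC arrays and from 2.70 to 3.12 on the HE arrays, with HE 4 at 2.84.

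**Figure D4:**
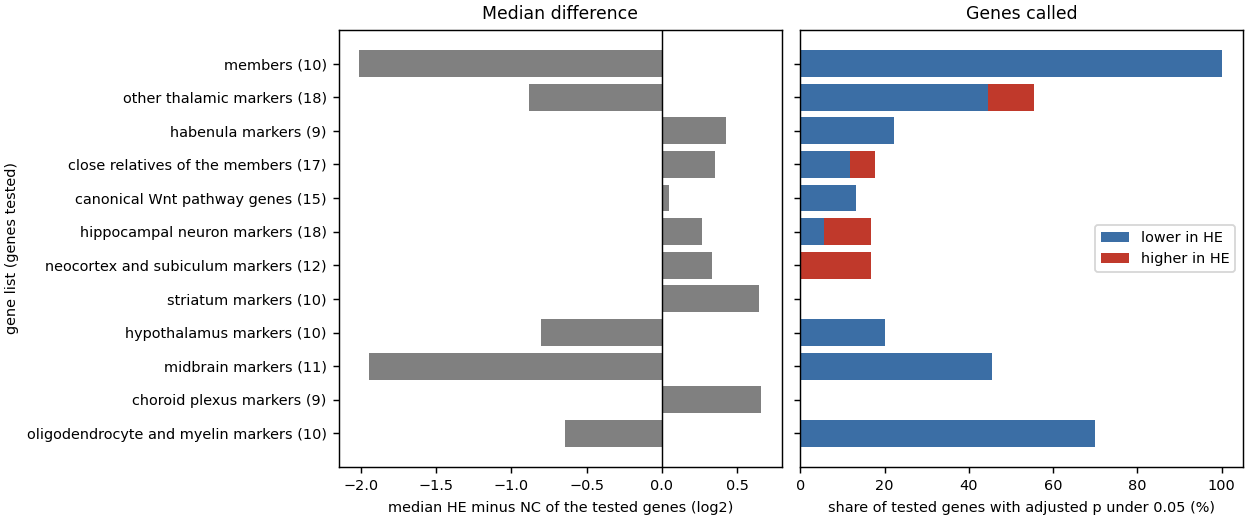
Left, the median log2 difference HE minus NC over the tested genes of each list. Right, the share of those genes called lower or higher by limma at an adjusted p under 0.05, with the number tested in parentheses. All 10 members were called lower, with a median of -2.01, and the midbrain list has the next lowest median, -1.94. The midbrain median with slide as a fixed block (-3.51) is below that of the members (-2.81).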

How the data were processed

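Total RNA of the hippocampus was labelled with Cy3 and read on Agilent 1-colour mouse arrays, per the labels' protocols, and the submitters' processing notes name Agilent Feature Extraction 10.7. The deposited scanner files hold each spot's intensity, background-subtracted and detrended within the array, per the file headers. The deposited series value table holds log2 values whose making is not stated. They correlated with log2 processed signals within each array at 0.9987 or more, with array medians of 7.0334 to 7.0337, so the scale and direction are known and the normalization is not. They served as an alternative only.

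Here log2 processed signals were taken relative to the 75th percentile of each array over 41174 non-control probes, after leaving out 68 to 129 uneven or outlying spots per array, and spots of a probe were averaged. No spot was saturated. Tested probes stood well above background on 3 or more of the 5 arrays in NC, in HE or in both. HE was compared with NC on all 10 arrays by lmFit and eBayes of limma 3.58.1 (R 4.3.3; two-sided, without covariates), with Benjamini-Hochberg adjustment over 30977 probes and a threshold of 0.05. A gene stands for its tested probe with the highest mean. The number of arrays limits the precision. On simulated data for this comparison with 30917 probes, of which 200 were changed, the test recovered 60% of log2 changes of 1. It recovered 92% of those of 2, with 16 wrong calls among 168. The simulated noise was normal and independent between probes and arrays, with no slide effect and no shared array pattern. These rates therefore need not hold for the real arrays.

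The members and lists were chosen with earlier results of these data known. Named genes were all members, up to 4 genes with the smallest p of each list, every gene of the other thalamic list, and the 8 genes most like the members' mean. A few genes so chosen are left unreported. The uncalled genes named from the other thalamic list, the bound for Gata3 and the 2 sets of correlated genes were chosen after seeing the data. So were the median without Shox2 and the list counts under other settings. The same holds for the fits without NC 1, NC 2 and NC 4 and without HE 4. RefSeq gave the same symbol for the accessions of 16 of the 22 member probes and another symbol for 0; the other accessions were not matched. Replicate numbers did not pair the arrays. Alternatives blocked on slide (fixed or random) or on the replicate number, used normexp (offset 50, centred or not), quantile normalization or the value table, changed the filter on dim probes or took 1 probe per gene, added an intensity trend or the Xist pattern, or left out arrays. Any 2 arrays of a group differed with an SD of 0.435 to 0.704 (log2), so none was a duplicate.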

Additional observations from a re-analysis of the deposited data

Results flagged for a closer look

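On HE 4, several member probes stood apart from the other 4 HE arrays by a gap larger than Dixon's critical value of 0.71 times the range of the group. The 3 tested Tcf7l2 probes were 1.77, -0.294 and -1.79 there. One Lef1 probe was -1.80, Gbx2 was -1.72, and 2 Ntng1 probes were 2.65 and 1.98. The mean of the 10 genes on HE 4 was 0.299. On NC 1, Gbx2 was -2.91, below the other 4 controls by such a gap. In all, 9 of 42 sets of 5 arrays were picked out in this way, 8 of them on HE 4, where chance picks out about 1 in 20, and probes of 1 gene and genes of 1 array are not independent.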

How the results depend on the processing

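No member gene changed direction under any of the 24 alternatives (23 for Shox2). With slide as a fixed block, 0 member genes, 1 member probe and 0 other thalamic markers were called lower by limma. At an unadjusted limma p under 0.05, 10 member genes, 9 of 18 other markers and 14.3% of all tested genes were lower. The median of the members was -2.81, from 1 control array. With normexp centred on the median probe, 2 genes, 7 probes and 1 other thalamic marker were called and the median was -0.96, where the median of all probes was 0.42. Relative to all probes, the members' median was -1.39 there, -1.39 under plain normexp and -1.95 as reported. On the arrays with high Xist, 5 genes, 11 probes and 0 other thalamic markers were called. There 10 member genes, 9 of 18 other markers and 17.5% of all tested genes were lower at an unadjusted limma p under 0.05. With 1 probe per gene, 10 member probes were called, since no more were tested. Leaving out 1 array gave 8 to 10 genes, 15 to 18 probes, 2 to 8 other thalamic markers and medians of -2.27 to -1.82. Of the pairs of correlated genes, 0 passed with Spearman's rho and 0 without HE 4. With the replicate block, 9 genes and 17 probes were called, Prkcd losing its call. Replicate numbers did not pair the arrays, with r of -0.068, -0.020, 0.153, 0.107 and -0.039 between the same-numbered arrays' deviations. Over all probes, 4786 were lower and 2387 higher, against 3841 and 3605 after quantile normalization, 12042 and 2329 under normexp, and 3348 and 10780 under normexp centred on the median probe. The cause of these changes was not tested.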
